A study of Mus musculus with 13 samples.

Results

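The genes described are 10 cell-surface molecules, or their partners, that are used to sort or recognise spermatogonia: the receptor Kit and its ligand Kitl, the GPI-anchored antigens Thy1 and Cd24a, the integrin subunits Itga6 and Itgb1, the tetraspanin Cd9, and the adhesion molecules Epcam, Cdh1 and Mcam. They were chosen by name, and all 10 were present among the 20662 gene symbols of each spermatogonial table. The series measured RNA by ribosomal-RNA-depleted, strand-specific sequencing in germ cells from testes of C57BL/6 mice at postnatal week 8. Of its 13 samples, 2 are spermatogonial, and the other 11 (5 spermatocyte, 5 spermatid and 1 mature sperm sample) were not analysed here. Both spermatogonial samples are labelled as spermatogonia from testis of that strain and age, with no transgene or treatment named, and they differ in their titles, KIT_AGSC and THY1_AGSC. The labels do not say how the cells were sorted, what AGSC stands for, or how many animals were pooled.

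Titles and column headings name opposite antigens. The table of the sample titled KIT_AGSC carries the heading Thy1 over its values, and that of the sample titled THY1_AGSC carries the heading Kit. Sample titles are followed throughout, so the KIT-labelled library is the sample titled KIT_AGSC (heading Thy1) and the THY1-labelled library is the sample titled THY1_AGSC (heading Kit). Following the headings would exchange the names in every sentence and leave every value as it is. Each group has 1 library, so the values have no replicate error, no test between groups was possible, and no order among genes could be set against a spread.

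As background, spermatogonia are the mitotic germ cells at the base of the seminiferous tubule. The undifferentiated ones, among them the stem cells, are commonly enriched by antibodies to THY1, alpha-6 integrin, beta-1 integrin, CD9, EPCAM, E-cadherin, MCAM or CD24, and lack or carry little KIT. KIT is a receptor tyrosine kinase that appears on the surface as spermatogonia differentiate in response to retinoic acid, and its ligand, stem cell factor, is made by Sertoli cells. None of these antigens is restricted to germ cells: KIT is carried by Leydig and mast cells, THY1 by T lymphocytes and stromal cells, MCAM by endothelium and EPCAM and E-cadherin by epithelia. Spermatids are also known to make a truncated KIT transcript from a promoter inside the gene, which a value per gene does not separate from the full-length one.

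The values were taken as FPKM, a level per length of transcript, so levels of different genes can be set side by side. Sequencing depth is unknown. A rough measure is the FPKM that 1 fragment is worth, estimated from the low end of genes with a single annotated transcript, and for a transcript of the same length it was 6.41 times larger in the KIT-labelled library than in the THY1-labelled library. Low values are therefore less certain in the former. Genes listed at exactly 0 made up 33.2% of that table and 24.2% of the other, and a 0 may be a failed estimate, so it is given only as listed. The noncoding RNA Rpph1 held 71.8% of the summed FPKM in the KIT-labelled library and 37.9% in the THY1-labelled library, and without it the sums were 427939 and 499685 FPKM. The labelled cell type was checked against 14 genes of undifferentiated spermatogonia. Zbtb16, Lin28a, Neurog3 and Eomes were listed at 0 in both libraries. The summed level of the list was 410 FPKM in the KIT-labelled library and 15.1 FPKM in the THY1-labelled library (192.9 and 10.9 FPKM without Egr4). Of the 8 genes that reached 1 FPKM, 7 were higher by 2-fold or more in the KIT-labelled library, with Etv5 the exception. Gfra1, Id4 and Bcl6b reached 1 FPKM only in the KIT-labelled library, and Etv5 only in the other, so their direction was set by the minimum. Nanos2, Nanos3, Lhx1 and Egr4 reached it in both. The summed level of 13 spermatocyte genes was 143 FPKM in the KIT-labelled library and 1640 FPKM in the THY1-labelled library, with all 13 higher by 2-fold or more in the latter and Dmc1, Hormad1, Ccna1 and Adam2 listed at 0 in the former. Sycp3 alone gave 110.8 FPKM of the sum in the KIT-labelled library, and without it the sums were 32.3 and 1354 FPKM. The THY1-labelled library, though labelled as spermatogonia, thus held transcripts of many meiotic genes. In the KIT-labelled library most of the level came from 1 gene. In such bulk samples, fewer cells of a type and less RNA per cell cannot be told apart. Beside these marker counts, 39.5% of all genes that reached 1 FPKM were higher by 2-fold or more in the KIT-labelled library. In the THY1-labelled library the share was 41.1%.

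The antigen transcript that gives each title its name was low or listed at 0 in that library. Kit was listed at 0 in the KIT-labelled library and stood at 36.7 FPKM in the THY1-labelled library, at percentile 85.0 of the genes listed there. Thy1 stood at 78.8 FPKM in the KIT-labelled library, at percentile 94.6, and at 0.723 FPKM in the THY1-labelled library, at percentile 35.3. Each transcript was thus high in the library whose column heading names it and low or listed at 0 in the library whose title names it.

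**Figure D1:**
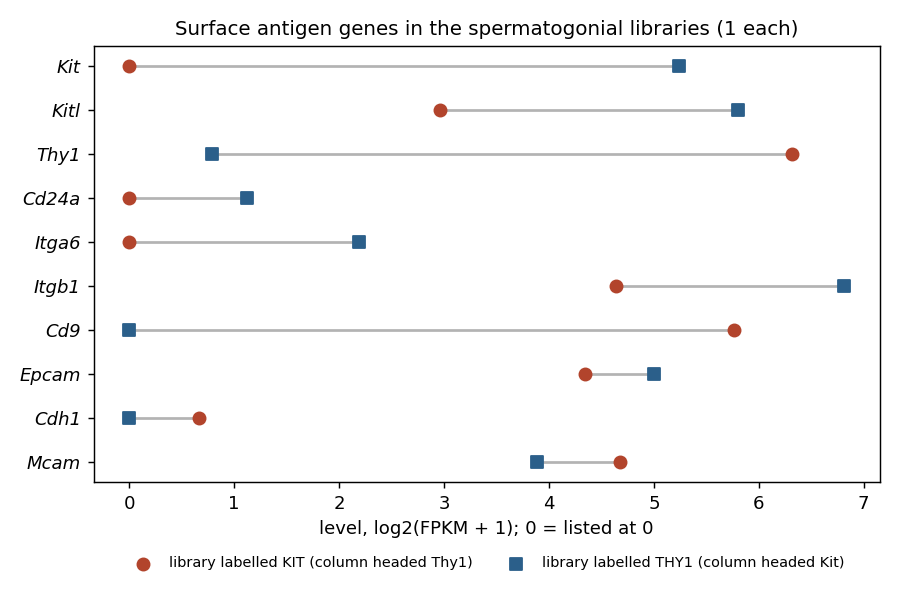
Level of each antigen gene, as log2(FPKM + 1) on the horizontal axis, in the KIT-labelled library (circles) and the THY1-labelled library (squares), 1 library each; grey lines join the 2 values of a gene. Thy1 and Cd9 lie far to the right in the KIT-labelled library, Kit, Kitl and Itgb1 in the THY1-labelled library, and Epcam and Mcam lie close together.

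Among the 9 antigen genes that reached 1 FPKM in either library, 2 were at least 2-fold higher in the KIT-labelled library (Thy1 and Cd9), against 39.5% of all 15573 genes that reached that level. Another 5 were at least 2-fold higher in the THY1-labelled library (Kit, Kitl, Itga6, Itgb1 and Cd24a), against 41.1% of all genes. The place of Cd24a in this count is uncertain, since its higher value is worth 0.785 of a fragment in the KIT-labelled library. Epcam and Mcam lay within 2-fold, and Cdh1 did not reach 1 FPKM in either library. Differences here and below are on the log2(FPKM + 1) scale, with the KIT-labelled library positive, and they understate changes of low genes. The median difference of the 9 was -1.13, which is the value of Cd24a, beside -0.0026 over all genes. Differences of 2-fold or more were thus common in this pair of libraries, and the antigens' counts show nothing particular to them. The sizes of the differences spanned a wide range. Including the antigen itself, 28 of the 15573 genes had a difference toward the KIT-labelled library as large as that of Cd9 (5.77), and 36 had one as large as that of Thy1 (5.53). In the other direction, 704 genes (4.52%) had a difference at least as large as that of Kit (-5.24).

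**Figure D2:**
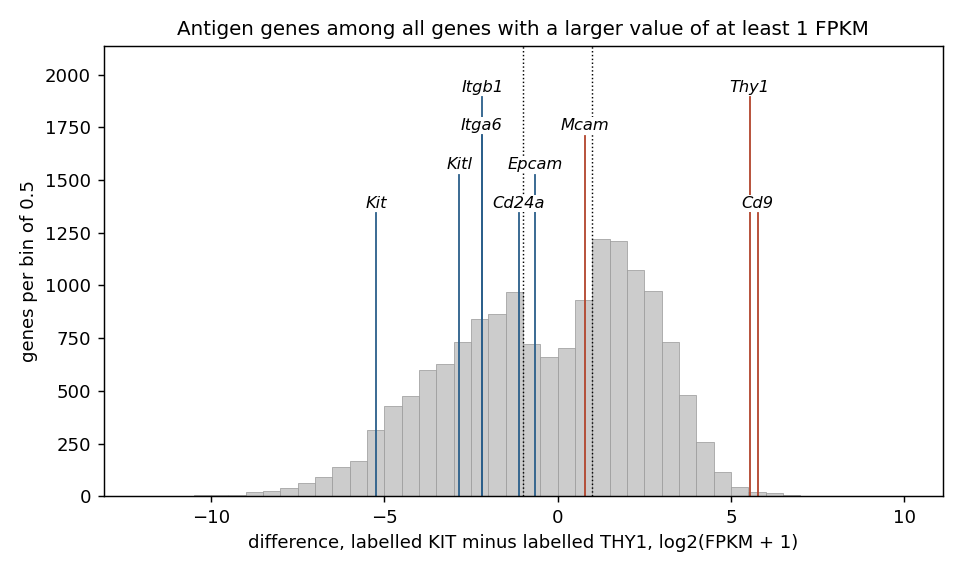
Number of genes (vertical axis, bins of 0.5) by difference between the libraries on the log2(FPKM + 1) scale (horizontal axis), for the 15573 genes that reached 1 FPKM in either library; coloured lines mark the 9 antigen genes and dotted lines a 2-fold difference. Thy1 and Cd9 lie at the right-hand edge of the distribution, Kit in its left tail and the other 6 within its bulk.

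The receptor and its ligand were both higher in the THY1-labelled library. Kitl stood at 6.79 FPKM in the KIT-labelled library and at 54.7 FPKM in the THY1-labelled library, 8.05 times the former value. In the THY1-labelled library the receptor was at 0.672 times the level of its ligand, and in the KIT-labelled library only the ligand was above 0. By the rough estimate above, 36.7 FPKM over Kit's 5241-base transcript would equal about 70.4 fragments in the KIT-labelled library. Of 2247 genes within 1.5 times of Kit's level in the THY1-labelled library, 339 (15.1%) were listed at 0 in the KIT-labelled library. The genes whose pair of values lay nearest to that of Kit over the 2 libraries, by Euclidean distance on the log2 scale, were Wdr93, Snapc1 and S100a1, each listed at 0 in the KIT-labelled library and at 36.8, 36.7 and 36.8 FPKM in the other.

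Some marker genes of other cells that carry Kit or make Kitl moved with these genes, and the part of those cells in the result was not tested. The counts stand beside 41.1% of all genes higher by 2-fold or more in the THY1-labelled library and 39.5% in the KIT-labelled library. Of 8 Leydig cell genes, 6 were higher by 2-fold or more in the THY1-labelled library and 0 in the other, with a summed level of 182 FPKM in the KIT-labelled library and 6501 FPKM in the THY1-labelled library. No gene of that list was at 0 in the THY1-labelled library, while Hsd3b6 and Hsd17b3 were listed at 0 in the KIT-labelled library. Of 9 mast cell genes, 5 (Mcpt4, Cma1, Tpsab1, Fcer1a and Ms4a2) were listed at 0 in both libraries, and the list summed to 26.2 FPKM in the KIT-labelled library and 11.3 FPKM in the THY1-labelled library (8.64 and 9.33 FPKM without Gata2). Of 7 genes of differentiating spermatogonia, 4 (57.1%) were higher by 2-fold or more in the THY1-labelled library and 0 in the other. Their summed levels were 43.4 FPKM in the KIT-labelled and 73.3 FPKM in the THY1-labelled library, and Sohlh2, Dnmt3b and Rhox13 were listed at 0 in the KIT-labelled library. The median difference of this list was -1.24, and over the 4 genes above 0 in both libraries it was 0.12, of the opposite sign. The 11 spermatid genes split, with 6 at least 2-fold higher in the KIT-labelled library and 5 in the THY1-labelled library, and summed to 4952 and 2861 FPKM respectively, or to 2546 and 2678 FPKM without Prm1. Spaca1 and Crem were at 0 in the KIT-labelled library. The 9 Sertoli cell genes measured summed to 46.2 FPKM in the KIT-labelled library and 945 FPKM in the THY1-labelled library. Clu alone gave 848 FPKM of the latter (1.62 FPKM in the former), and without it the sums were 44.5 and 96.4 FPKM. Of the list, 3 were at least 2-fold higher in the KIT-labelled library and 4 in the other, and Fshr and Inha were listed at 0 in the KIT-labelled library.

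Among 33 genes listed for KIT signalling, which include the proteases Adam10 and Adam17, 17 were higher by 2-fold or more in the THY1-labelled library. Another 6 were higher by 2-fold or more in the KIT-labelled library, and 10 lay within 2-fold (median -1.32). These counts are 51.5% and 18.2% of the list, beside 41.1% and 39.5% of all genes, and the latter shares and the median of -0.0026 are the background for each list below. Map2k2, which activates ERK, stood at 2.37 FPKM in the KIT-labelled library and 66.9 FPKM in the THY1-labelled library, and Akt1 at 29.1 and 121.8 FPKM. The small GTPase gene Nras stood at 1.12 FPKM in the KIT-labelled library and 33.4 FPKM in the THY1-labelled library. Adam10, a protease that sheds cell-surface proteins, was at 0.591 and 47.9 FPKM. In the opposite direction, the adaptor Sh2b3, an inhibitor of cytokine and KIT signalling, stood at 304.7 FPKM in the KIT-labelled library and 30.5 FPKM in the THY1-labelled library.

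Thy1 encodes a small immunoglobulin-fold protein held in the membrane by a GPI anchor, and its level differed 109-fold between the libraries (78.8 and 0.723 FPKM, KIT-labelled library first). The low value equals about 2.94 fragments over the 1735-base transcript in the THY1-labelled library, so the exact ratio rests on few fragments, while the high value equals about 50.01 fragments in its own library. In the KIT-labelled library, Thy1 was the highest of the 10 antigens. The genes nearest to it over the 2 libraries were Olfr1396 (81.1 and 0.755 FPKM), Olfr646 (77.5 and 0.894 FPKM) and Ormdl3 (74.3 and 0.868 FPKM). Among cells that carry THY1, 4 of the 6 T lymphocyte genes that reached 1 FPKM were higher by 2-fold or more in the KIT-labelled library and 1 in the THY1-labelled library. Of these 4, Cd3e (2.46 and 0 FPKM, KIT-labelled library first), Cd4 (2.76 and 0.451 FPKM) and Cd8a (10.2 and 0.777 FPKM) reached 1 FPKM only in the KIT-labelled library. Their direction was thus set by the minimum. Their list summed to 51.8 FPKM in the KIT-labelled library and 15.2 FPKM in the THY1-labelled library. Of the 9 T lymphocyte genes, Cd3g and Cd2 were listed at 0 in both libraries, Zap70 in the KIT-labelled library and Cd3e in the THY1-labelled library, and the highest was Cd5 at 27.5 FPKM, below Thy1 itself. Of the 10 peritubular and stromal genes, 7 reached 1 FPKM, 4 of them at least 2-fold higher in the KIT-labelled library and 3 in the THY1-labelled library, with summed levels of 219 and 202 FPKM (63.1 and 154.5 FPKM without Tagln) and Des listed at 0 in both. Pdgfra and Dcn were at 0 in the KIT-labelled library only. The part of these cells in the Thy1 value was not tested.

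Cd24a, a short, heavily glycosylated GPI-anchored protein, was listed at 0 in the KIT-labelled library and at 1.18 FPKM in the THY1-labelled library. That level is worth 0.785 of a fragment in the KIT-labelled library, so a difference of Cd24a was not detectable at this depth. The 4 erythroid genes measured, of a lineage that carries CD24, summed to 72.8 FPKM in the KIT-labelled library and 12.9 FPKM in the THY1-labelled library, with 3 at least 2-fold higher in the former and none at 0 in either. Of 26 usable genes that build or remodel GPI anchors, which Thy1 and Cd24a share, 13 were at least 2-fold higher in the KIT-labelled library, 7 in the THY1-labelled library and 6 lay within 2-fold (median 0.93). Dpm2, a subunit of the dolichol-phosphate mannose synthase, stood at 621 FPKM in the KIT-labelled library and 5.91 FPKM in the THY1-labelled library. Pigc, of the first step of the pathway, was at 109.1 and 1.32 FPKM. Pign, which adds an ethanolamine phosphate, was listed at 0 in the KIT-labelled library and at 22.9 FPKM in the other.

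The integrin subunits, which pair as the laminin receptor alpha-6 beta-1, were both higher in the THY1-labelled library. Itgb1 stood at 23.9 FPKM in the KIT-labelled library and 111.3 FPKM in the THY1-labelled library, 4.66 times the former value, and was the highest of the 10 antigens there. Itga6 was listed at 0 in the KIT-labelled library and stood at 3.56 FPKM in the THY1-labelled library, a level worth about 5.61 fragments in the KIT-labelled library. Within the THY1-labelled library, the beta subunit was at 31.3 times the level of the alpha subunit. Itgb1 is the common partner of many alpha subunits, and these did not share a direction. Of the 21 usable integrin partners and adaptors, 8 were at least 2-fold higher in the KIT-labelled library and 10 in the THY1-labelled library (median -0.42). Higher in the THY1-labelled library were the adaptors Fermt2 (1.47 and 78.0 FPKM, KIT-labelled library first) and Tln2 (0.212 and 32.6 FPKM), which activate integrins, and the focal adhesion kinase Ptk2 (1.41 and 57.0 FPKM). The integrin-linked kinase Ilk was similar, at 126.6 and 102.8 FPKM. The median of this list changed sign to 0.12 when the libraries were scaled to the same upper quartile. Of 13 usable laminin and other matrix genes, the ligands of these receptors, 7 were at least 2-fold higher in the THY1-labelled library and 2 in the KIT-labelled library (median -2.02). The laminin chain gene Lamc1 stood at 0.406 FPKM in the KIT-labelled library and 41.5 FPKM in the THY1-labelled library, and Lamb1 at 7.23 and 43.0 FPKM.

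Cd9, a tetraspanin that associates with integrins in the membrane, ran opposite to them. It stood at 53.5 FPKM in the KIT-labelled library, at percentile 91.6, and was listed at 0 in the THY1-labelled library. A level of 53.5 FPKM over its 1228-base transcript would equal about 153.8 fragments in the THY1-labelled library. Such a pair of values was rare: of 1348 genes within 1.5 times of that level in the KIT-labelled library, 19 (1.41%) were listed at 0 in the THY1-labelled library. Of 13 usable other tetraspanins and partners, 7 (53.8%, beside 41.1% of all genes) were higher by 2-fold or more in the THY1-labelled library and 2 (15.4%, beside 39.5%) in the KIT-labelled library (median -1.08). Over the 10 of them above 0 in both libraries the median was 0.38, of the opposite sign. Cd81, a relative of Cd9, stood at 85.3 FPKM in the KIT-labelled library and 308.6 FPKM in the THY1-labelled library. Tspan6 was listed at 0 in the KIT-labelled library and at 153.1 FPKM in the THY1-labelled library. The leukocyte tetraspanin Cd53 was at 92.6 FPKM in the KIT-labelled library and 8.28 FPKM in the other. Among macrophages, which also carry CD9, 4 of 9 genes were higher by 2-fold or more in the KIT-labelled library and 3 in the THY1-labelled library, with summed levels of 258 and 964 FPKM. Aif1 alone gave 880 FPKM of the latter, and without it the sums were 233.5 and 83.6 FPKM, in the opposite direction. C1qc was listed at 0 in the THY1-labelled library and none in the other, and the part of these cells in the Cd9 value was not tested.

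Epcam, an epithelial adhesion molecule of undifferentiated and early differentiating spermatogonia, was similar in both libraries. It stood at 19.2 FPKM in the KIT-labelled library and 31.0 FPKM in the THY1-labelled library, and at percentiles 81.0 and 82.7 of its libraries. Its difference of -0.66 reached 2-fold under 1 other scaling, to a median ratio of 1 (-1.21). Genes that act with EPCAM or resemble it went toward the KIT-labelled library for 5 of 8 and toward the THY1-labelled library for 1 (median 1.66). Of these 5, Cldn1 (1.14 FPKM) and Cldn4 (5.37 FPKM) were listed at 0 in the THY1-labelled library. They reached 1 FPKM only in the KIT-labelled library, so their direction was set by the minimum. The claudin Cldn7, which binds EPCAM, stood at 104.4 FPKM in the KIT-labelled library and 1.43 FPKM in the THY1-labelled library, and Cldn3 at 1767 and 116 FPKM. Of 8 genes of duct epithelium, of which Cldn3, Cldn4 and Spint1 are also in that list, Krt7, Krt18 and Pax8 were listed at 0 in both libraries. That list summed to 1791 FPKM in the KIT-labelled library and 123 FPKM in the THY1-labelled library, nearly all of it from Cldn3. Krt19 was listed at 0 in the KIT-labelled library and Cldn4 in the THY1-labelled library, and 3 of the 4 genes that reached 1 FPKM were higher by 2-fold or more in the KIT-labelled library. Of these 3, Cldn4 and Krt8 (8.90 and 0.365 FPKM, KIT-labelled library first) reached 1 FPKM only in the KIT-labelled library.

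Cdh1, which encodes E-cadherin, was at 0.588 FPKM in the KIT-labelled library, about 0.952 of a fragment, and was listed at 0 in the THY1-labelled library. That level would equal about 6.10 fragments in the THY1-labelled library. The value in the KIT-labelled library rests on about 1 fragment, so no difference of Cdh1 was read from it. The catenins that link cadherins to actin were present, and 7 of 8 usable cadherin and catenin genes were higher by 2-fold or more in the THY1-labelled library, with 1 higher in the KIT-labelled library (median -1.90). The beta-catenin gene Ctnnb1 stood at 31.4 FPKM in the KIT-labelled library and 93.0 FPKM in the THY1-labelled library, and Ctnna1 at 8.95 and 58.1 FPKM. Jup was listed at 0 in the KIT-labelled library and at 19.7 FPKM in the THY1-labelled library.

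Mcam, an immunoglobulin-family adhesion molecule, stood at 24.6 FPKM in the KIT-labelled library and 13.8 FPKM in the THY1-labelled library, within 2-fold on the log2(FPKM + 1) scale (0.80). It passed 2-fold when the libraries were scaled to the same upper quartile (1.33) or to equal sums leaving out Rpph1 (1.004). Of the 9 endothelial genes, whose cells carry MCAM, 6 reached 1 FPKM, with 3 at least 2-fold higher in the KIT-labelled library and 2 in the THY1-labelled library. They summed to 79.3 FPKM in the KIT-labelled library and 13.9 FPKM in the THY1-labelled library. Emcn was listed at 0 in both, Pecam1 and Vwf in the KIT-labelled library, and the part of these cells in the Mcam value was not tested. Mcam and Thy1 lie close together on chromosome 9 in the RefSeq annotation, with 3 measured genes between them, chosen by that position. Of these, C1qtnf5 (85.0 and 4.89 FPKM, KIT-labelled library first) and Rnf26 (21.3 and 0.677 FPKM) were higher in the KIT-labelled library, as Thy1 was, and Usp2 (14.0 and 81.0 FPKM) in the THY1-labelled library.

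The order of the antigens within a library does not depend on how the libraries are scaled. In the KIT-labelled library it ran from Thy1 through Cd9, Mcam, Itgb1, Epcam, Kitl and Cdh1 to the genes listed at 0, which were Kit, Cd24a and Itga6. In the THY1-labelled library it ran from Itgb1 through Kitl, Kit, Epcam, Mcam, Itga6, Cd24a and Thy1 to Cd9 and Cdh1, listed at 0. Thy1 thus moved from the first place to the eighth and Kit from a listed 0 to the third, while Epcam stayed in the middle. Neighbours such as Mcam and Itgb1 in the KIT-labelled library (24.6 and 23.9 FPKM) cannot be ordered with 1 library. Thy1 was at 3.30 times the level of Itgb1 in the KIT-labelled library and at 0.00649 times in the THY1-labelled library, and Mcam at 1.03 and 0.124 times.

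**Figure D3:**
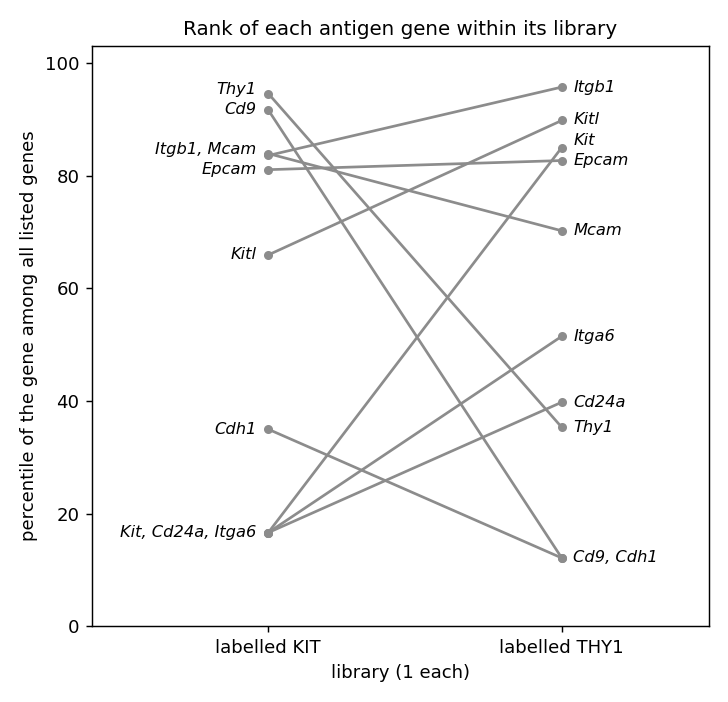
Percentile of each antigen gene among all 20662 listed genes of its library (vertical axis) in the KIT-labelled library and the THY1-labelled library; lines join the 2 values of a gene, and genes listed at 0 share the lowest position. Thy1 and Cd9 drop from above 90 in the KIT-labelled library, Kit climbs from the lowest position to 85.0, and Epcam is nearly level.

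Other molecules used to sort spermatogonia or to leave cells out of a sort were measured as well. Of 12 that reached 1 FPKM, 8 were higher by 2-fold or more in the THY1-labelled library and 2 in the KIT-labelled library (median -1.67), and over the 8 above 0 in both libraries the median was -0.34. The GDNF receptor Gfra1, a marker of stem cell spermatogonia, was at 3.91 FPKM in the KIT-labelled library and 0.102 FPKM in the other, and its co-receptor Ret was under 1 FPKM in both (0.574 and 0.453). Ly6a was at 25.8 FPKM in the KIT-labelled library and 6.35 FPKM in the THY1-labelled library. The alpha-v integrin Itgav stood at 1.71 FPKM in the KIT-labelled library and 64.8 FPKM in the THY1-labelled library, and the leukocyte antigen Ptprc was listed at 0 and at 4.34 FPKM, in the same order. The transferrin receptor Tfrc was listed at 0 in the KIT-labelled library and at 68.1 FPKM in the other. Toward the THY1-labelled library also went the orphan receptor Gpr125 (listed at 0 and at 11.7 FPKM), Pvr (listed at 0 and at 3.44 FPKM), Alcam (0.401 and 7.15 FPKM), Epha2 (4.89 and 12.4 FPKM) and Prom1 (27.8 and 61.2 FPKM), all with the KIT-labelled library first. The tetraspanins Tspan8 (73.5 and 54.5 FPKM) and Cd82 (51.9 and 34.1 FPKM) lay within 2-fold. Bst1 and Cxcr4 were listed at 0 in both libraries.

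**Figure D4:**
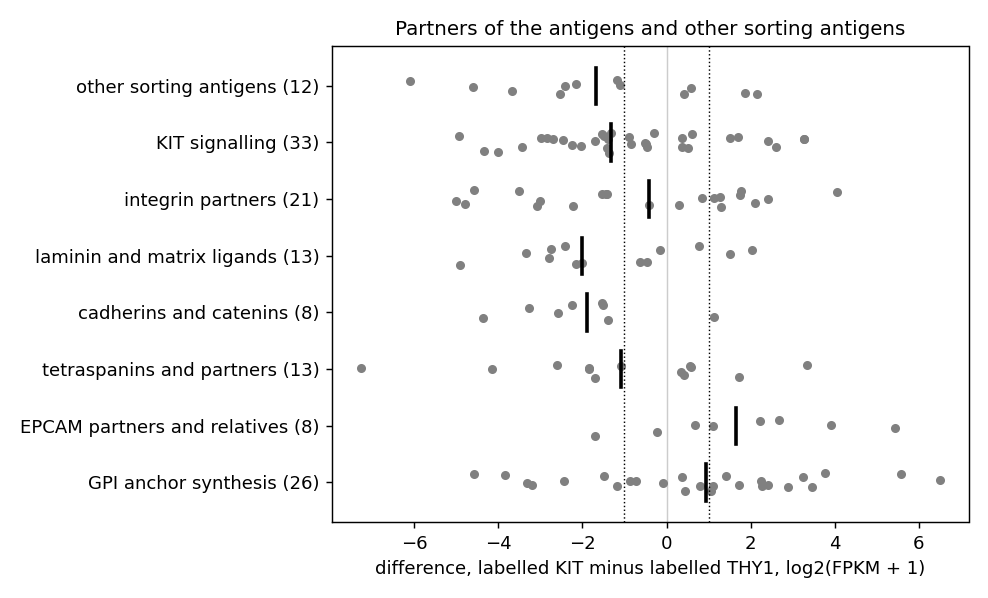
Difference between the libraries (KIT-labelled minus THY1-labelled library, log2(FPKM + 1), horizontal axis) of genes that act with the antigens and of other sorting antigens; each point is a gene, black bars are list medians, dotted lines mark 2-fold and the number of genes plotted is in parentheses. The lists of EPCAM partners and GPI anchor synthesis have medians above 0 and the other 6 below 0, from -0.42 to -2.02.

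Over all genes the difference was lower in the longest class of transcripts than in the shortest, and the length classes overlapped widely. The share at least 2-fold higher in the KIT-labelled library was 48.1% below 1000 bases and 28.3% from 6000 bases. For the THY1-labelled library the shares were 41.9% and 50.1%. The antigens far higher in the KIT-labelled library have short transcripts (Cd9 1228 and Thy1 1735 bases), and 4 of the 5 higher in the THY1-labelled library have long ones (Itgb1 3815, Itga6 4310, Kit 5241 and Kitl 5648 bases). Cd24a, the other of these 5, has a short one (1816 bases). Over all genes with a known length, the median difference was 0.29 for 2904 genes of 1000 to 2000 bases and -0.56 for 950 genes of 5000 to 6000 bases. The differences of Thy1, Cd9, Kit and Kitl lie outside the interquartile range of their length class, as those of many genes of each class do. The correlation of difference and log2 length over 13410 genes was -0.051, a description across genes of 2 libraries. The part of length in the antigen differences was not tested.

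**Figure D5:**
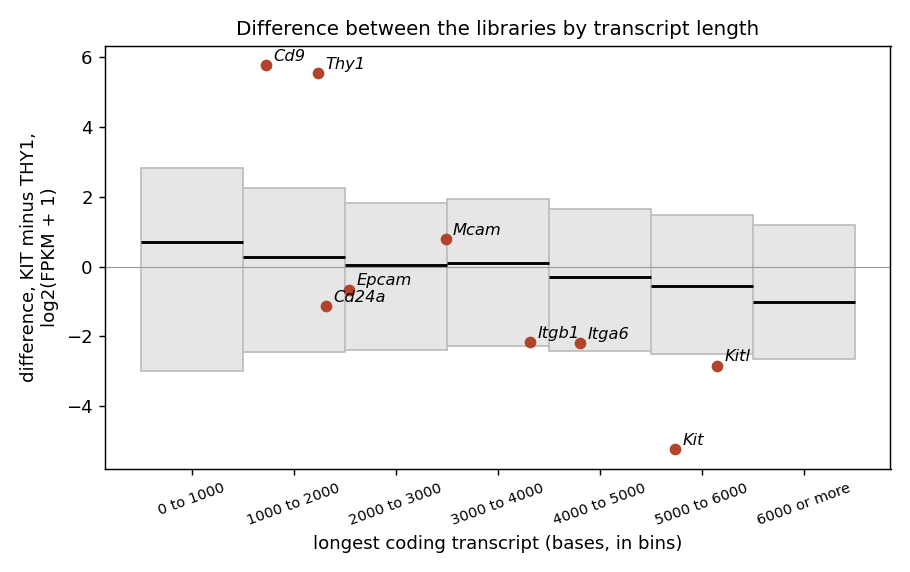
Difference between the libraries (KIT-labelled minus THY1-labelled library, log2(FPKM + 1), vertical axis) by length of the longest coding transcript (horizontal axis, in bins); grey boxes span the lower to the upper quartile of all genes in a bin, black lines are medians and points are the antigen genes. Medians go from 0.70 in the shortest bin to -1.01 in the longest, and Thy1, Cd9 and Kit lie far outside the boxes, with Kitl just outside.

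Promoter windows from RefSeq (build GRCm38.p6, from 250 bases before to 50 after the annotated start) are shown for the antigens with a difference of 2-fold or more that have an entry: Kit, Kitl and Itgb1, higher in the THY1-labelled library, and Cd9, higher in the KIT-labelled library. The table held 6 of the 10 antigens, with Epcam and Mcam, and not Thy1, Cd24a, Itga6 and Cdh1. The first entry of each gene was used, and the windows lie at chr5:75574737-75575036 (plus strand) for Kit, chr10:100015571-100015870 (plus strand) for Kitl, chr8:128685404-128685703 (plus strand) for Itgb1 and chr6:125494711-125495010 (minus strand) for Cd9. Capitals mark GC boxes (GGGCGG, on either strand) and TATA boxes (TATAAA, on either strand).
Kit: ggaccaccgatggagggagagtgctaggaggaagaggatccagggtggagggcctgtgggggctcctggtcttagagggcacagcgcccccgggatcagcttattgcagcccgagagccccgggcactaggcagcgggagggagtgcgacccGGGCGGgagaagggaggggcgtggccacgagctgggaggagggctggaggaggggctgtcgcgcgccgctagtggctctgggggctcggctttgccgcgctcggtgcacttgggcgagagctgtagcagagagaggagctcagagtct
Kitl: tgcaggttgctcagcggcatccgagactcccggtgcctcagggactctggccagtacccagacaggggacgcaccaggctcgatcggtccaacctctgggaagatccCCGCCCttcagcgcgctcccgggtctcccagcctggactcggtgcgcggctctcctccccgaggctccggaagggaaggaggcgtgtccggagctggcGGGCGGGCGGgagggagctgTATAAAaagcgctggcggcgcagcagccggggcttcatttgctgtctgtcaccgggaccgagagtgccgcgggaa
Itgb1: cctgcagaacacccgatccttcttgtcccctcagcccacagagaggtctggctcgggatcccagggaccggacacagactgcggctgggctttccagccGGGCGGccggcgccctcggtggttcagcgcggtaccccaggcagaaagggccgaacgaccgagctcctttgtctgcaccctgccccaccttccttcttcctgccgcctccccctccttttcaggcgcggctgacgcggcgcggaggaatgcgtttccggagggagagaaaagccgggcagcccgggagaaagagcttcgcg
Cd9: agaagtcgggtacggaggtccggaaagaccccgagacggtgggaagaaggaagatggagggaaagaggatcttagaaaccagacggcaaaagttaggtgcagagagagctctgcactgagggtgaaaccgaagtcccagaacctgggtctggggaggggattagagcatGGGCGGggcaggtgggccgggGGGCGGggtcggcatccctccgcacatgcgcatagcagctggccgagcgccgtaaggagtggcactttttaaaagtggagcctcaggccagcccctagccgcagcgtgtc

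A GC box was found in all 4 windows, with 1 match in Kit, 3 in Kitl (some overlapping each other), 1 in Itgb1 and 2 in Cd9, and it occurs in 35.9% of the 27025 promoters of the table. The TATA box was found only in Kitl among the 4, against 14.2% of all promoters. The E-box CANNTG, whose letters many basic helix-loop-helix factors bind, had 1 match in Kit, 1 in Kitl, 0 in Itgb1 and 3 in Cd9, and occurs in 72.1% of all promoters. No match of one motif overlapped a match of another. All 4 windows were rich in CpG, with 18 in Cd9, 20 in Kit, 27 in Itgb1 and 28 in Kitl, against a median of 7 over all promoters. The window of Cd9 held GC boxes, as did those of the genes that differed in the opposite direction, and had the lowest CpG count of the 4. Epcam and Mcam, whose levels lay within 2-fold, also had GC boxes (1 and 5), with 11 and 29 CpG.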

How the data were processed

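Values were used for the 2 spermatogonial libraries, with 1 library per group, and tables were matched to samples by the series record, never by their headings. The tables were deposited as 1 decimal value per gene symbol with no unit in the header; they were taken as FPKM because the submitters' processing notes name Cufflinks 2.1.1, with TopHat 1.4.1, CASAVA and build mm9 beside it and no roles stated. For the annotation, and for fragments with several alignments, the choice made is not given in the sources used here.

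Differences were taken as log2(FPKM + 1), KIT-labelled minus THY1-labelled library, for genes that reached 1 FPKM in either library, and counted at 2-fold. A gene that reached 1 FPKM in only 1 library entered every count through that library, so its direction was fixed by the minimum. Among the antigens this holds for Kit, Thy1, Cd24a, Itga6 and Cd9. No test was possible. The FPKM worth 1 fragment was estimated as percentile 5 of FPKM multiplied by length, above 0, over genes with a single annotated coding transcript of more than 1000 bases. Lengths came from GENCODE M21 (18395 symbols matched), whose build differs from mm9, so only the promoter windows carry coordinates, on GRCm38.p6. For a gene with several transcripts the longest coding one was used. The code for counting and scaling was checked on simulated columns without noise or zeros, which says nothing of how reliable the values of these libraries are.

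The genes and lists were chosen with earlier results of these data known. Named are all 10 antigens, all other sorting antigens, from each other list some of the 3 most different genes and of the 2 with the highest mean, and for Kit and Thy1 the 3 nearest genes, leaving out predicted genes and small RNAs. Of the marker lists, named are mainly genes listed at 0. Other settings were a pseudocount of 0.1, 3 scalings, no minimum or 5 FPKM, and genes above 0 in both libraries. Ranks within a library were added after seeing the data. Python 3.11.15, numpy 2.4.6 and pandas 2.3.3 were used.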

Additional observations from a re-analysis of the deposited data

How the results depend on the processing

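The direction of each of the 9 antigen differences was the same under every setting that could give it. For Kit, Cd24a, Itga6 and Cd9, each listed at 0 in 1 library, this was fixed in advance, since no setting could reverse the sign. For Thy1, Kitl, Itgb1, Epcam and Mcam, a change of pseudocount or minimum could not reverse it either. The scalings moved the median of all genes by at most 0.56, less than the smallest of these differences (Epcam, -0.66). The shared direction under these settings is therefore no support for it. The differences ran from 5.27 to 6.58 for Thy1, 5.77 to 9.06 for Cd9, -8.52 to -4.68 for Kit and -3.39 to -2.27 for Kitl. The count of antigens at least 2-fold higher in the THY1-labelled library was 3 with a minimum of 5 FPKM and 2 over genes above 0 in both libraries, where 1 antigen (Thy1) was at least 2-fold higher in the KIT-labelled library. These settings leave 7 and 5 of the antigens. The median difference of the antigens, -1.13 as reported, was -2.21 with a pseudocount of 0.1, -1.46 after scaling to a median ratio of 1, -1.01 after scaling to the sum without Rpph1, -0.85 after scaling to the same upper quartile, -0.89 with no minimum and -0.66 both with a minimum of 5 FPKM and above 0 in both libraries. Among the related lists, the median of the tetraspanins and partners changed sign to 0.38 above 0 in both libraries, and that of the integrin partners to 0.12 after upper-quartile scaling. The median of KIT signalling fell below 2-fold after upper-quartile scaling (-0.79) and above 0 in both libraries (-0.89). That of the other sorting antigens ran from -2.59 to -0.34, and that of GPI anchor synthesis from 0.29 to 1.37. The scalings shifted the median difference of all genes by -0.55 (median ratio of 1), 0.56 (upper quartile) and 0.22 (sum without Rpph1). No paired analysis was possible because each spermatogonial group has 1 library. Depth limits Cd24a and Cdh1, whose levels are worth about 1 fragment or less in the KIT-labelled library.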
